A study of Mus musculus with 2 samples.

Results

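Expression of 10 genes of tendon, ligament and perichondrial fibroblasts was examined in cartilage of the femur from mouse embryos lacking *Tric-b*, a gene for a cation channel of the endoplasmic reticulum. The genes were *Scx*, *Tnmd*, *Mkx*, *Postn*, *Tnc*, *Tnn*, *Thy1*, *Pdgfra*, *Pdgfrb* and *Dpt*, chosen by name out of 18193 named genes on the array, and every probe set annotated to 1 of them alone was used. The data came from 2 Affymetrix arrays, both of E17.5 knockout embryos on a C57BL/6J and 129Sv background according to the sample labels. One array (C/H) was of the columnar and hypertrophic zones of the cartilage, and the other (round) was of the zone of round chondrocytes, each dissected as an enriched slice. According to the submitters' design text, preparations from 3 cartilage portions were mixed for the arrays. Both zones came from *Tric-b*-knockout embryos, and wild-type arrays were not analysed here. Each zone therefore had 1 array, so no difference given below has a replicate check, a test or an error between animals.

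The perichondrium is the fibrous sheath around growing cartilage, and tendons and ligaments insert into the cartilage near the joint. Their fibroblasts secrete collagen fibrils and matricellular proteins such as periostin and the tenascins, which sit between the fibrils and the cells. They respond to platelet-derived growth factors through the receptors PDGFRα and PDGFRβ. The tendon cell itself is set apart by the transcription factors scleraxis and Mohawk and by the membrane protein tenomodulin. Chondrocytes of the round, columnar and hypertrophic zones are embedded in a different matrix, built on type II and type X collagen.

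The labelled tissue and zones were first checked against marker genes. All 10 genes of a cartilage list were above the floor in both arrays, with log2 differences (columnar/hypertrophic minus round) from -0.29 to 0.67. Several were near the top of the range, where a difference can be hidden. *Col9a1*, at 67986 in the C/H and 68899 in the round array, was the highest signal of each. The floor, a signal of 65.9, is percentile 40 of the pooled values, below which signals were not told apart. Every one of the 5 compared hypertrophic genes was 2-fold or more above round in the C/H array, 3 of them as bounds, and *Ihh*, the hedgehog ligand of prehypertrophic cells, had signals of 3900 there and 87.8 in the round array. Above the floor lay 26448 of 45037 probe sets in the C/H array and 27596 in the round array. Where a probe set was under the floor in 1 array, the floor replaced its signal and the difference is a bound.

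None of the 10 tendon and perichondrial genes was higher in the C/H array on any compared probe set. Of the 10 genes, 8 could be compared, and *Scx* and *Thy1* could not because the probe set standing for them was under the floor in both arrays. Of the 8, 6 were above the floor in both arrays. All 6 had the lower signal in the C/H array, 5 of them by at least 2-fold, with *Mkx* within that limit, and their median log2 difference was -1.68. Of all 11189 genes above the floor in both arrays, 52.5% were on that side by any size, 5.45% by at least 2-fold, and 3.86% passed 2-fold with the C/H signal on top. The other 2 genes, *Tnn* and *Dpt*, were compared only because they passed the floor in the round array, which fixes their direction. The bound of *Tnn* was past 2-fold, and that of *Dpt* does not tell whether it was. With such bounds included, 6 members passed 2-fold and the 3 shares over all 12714 compared genes were 53.1%, 6.17% and 4.26%, with a median of -1.43 for the 8 members and -0.04 for all genes. The median of all genes was 0.05 after median centring of the probe sets, 0.03 after quantile normalization and 0.01 after lowess centring. The markers most particular to tendon cells, *Scx* and *Tnmd*, had C/H signals near or under the floor, and of their round signals that of *Tnmd* was 3.24 times the floor. The members *Postn*, *Tnc*, *Pdgfra* and *Pdgfrb* are shared by perichondrial and other fibroblasts. The genes are not independent of each other, and in mixed tissue fewer cells of a type and less RNA per cell cannot be told apart.

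**Figure D1:**
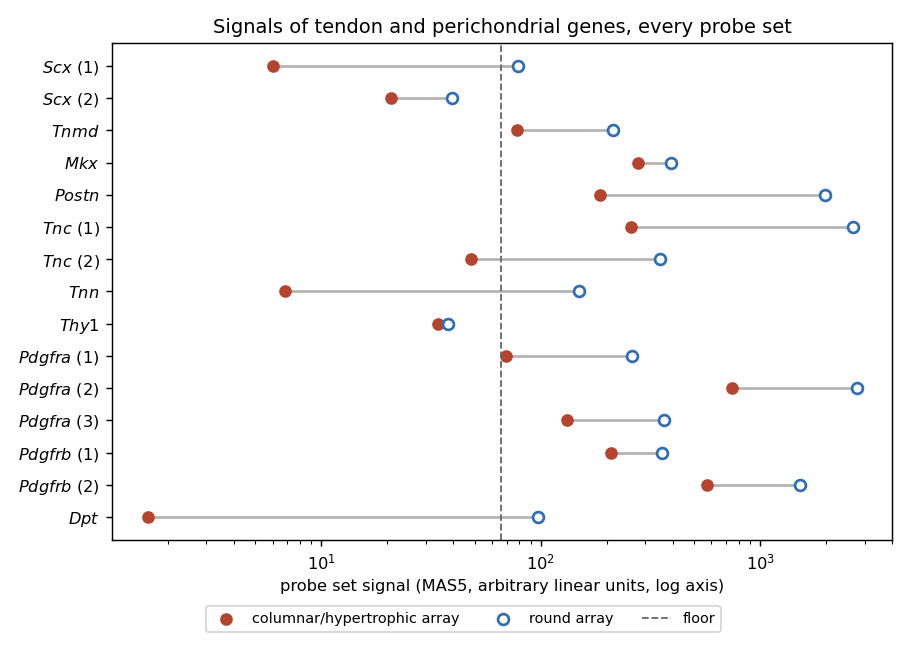
Signals (log axis, MAS5 units) of all 15 probe sets of the 10 genes in the C/H array (filled) and the round array (open), 1 array per zone, with the floor of 65.9 as a dashed line; numbers in brackets separate probe sets of 1 gene. The filled point lies left of the open point in each row, at 186 against 1977 for *Postn* and at 33.9 against 37.6, both under the floor, for *Thy1*.

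The 10 genes were measured by 15 probe sets, 1 each for 6 genes and 2 or 3 for the other genes. In both arrays 9 probe sets were above the floor and 2 were under it. The remaining 4 were above the floor in the round array alone, and none was above it in the C/H array alone. Those 4 could differ in no other direction. Of the 9 above the floor in both arrays, all were lower in the C/H array and 7 of them by at least 2-fold, against 56.6% and 5.47% of the 24786 probe sets above the floor in both. With the bounds included, 9 of 13 were past 2-fold on that side and 0 on the other, and over all 29258 probe sets compared 57.6% were on that side by any size, 6.24% by at least 2-fold, and 3.58% past 2-fold on the other side. Of all probe sets past 2-fold, 63.6% were higher in the round array as deposited, and 51.4% after quantile normalization.

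The 2 transcription factors of the tendon lineage had signals near the floor or a difference within 2-fold. *Scx*, which encodes the bHLH factor scleraxis that marks tendon and ligament progenitors, had a signal of 6.03 in the C/H array and 79.2 in the round array on probe set 1428983_at. The second is just above the floor, so the gene was at least 1.20-fold lower in the C/H array on that probe set and no more can be said. On its other probe set, 1456291_x_at, both signals were under the floor, at 20.7 in the C/H and 39.3 in the round array. *Mkx*, which encodes the homeobox factor Mohawk required for tendon collagen production in the mouse, had signals of 279 in the C/H array and 393 in the round array. Its log2 difference of -0.49 was the smallest in size of the 8, and 19.2% of compared genes had a lower one. The pooled SD of the difference between probe sets of a gene was 0.34 over 5446 genes, which holds no variation between animals. *Mkx* was thus above the floor in both zones, and its signal was 1.41-fold higher in the round array.

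The 2 cell surface proteins used as markers of tendon cells and fibroblasts had signals near or under the floor in the C/H array. *Tnmd*, which encodes tenomodulin, a transmembrane glycoprotein of mature tenocytes, had a signal of 78.0 in the C/H array and 214 in the round array. This is a log2 difference of -1.46, and the lower signal is 1.18 times the floor. Under a floor raised to percentile 60 the bound was -0.05, so the size of this difference rests on a signal near the floor. *Thy1*, which encodes the surface glycoprotein CD90 of fibroblasts, T cells and neurons, had signals of 33.9 in the C/H array and 37.6 in the round array. Both were under the floor, and the gene was not detectable in either zone by this limit.

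Both PDGF receptor genes were above the floor in both arrays on each of their probe sets. *Pdgfra*, which encodes the receptor that binds PDGF-A and PDGF-C homodimers among other ligands, had signals of 741 in the C/H and 2763 in the round array on its brightest probe set, 1421917_at. The other probe sets had 69.8 and 132 in the C/H array, and 261 and 365 in the round array. The 3 log2 differences were -1.90, -1.90 and -1.47. All 3 probe sets were thus past 2-fold in the same direction, and none of them was a bound. *Pdgfrb*, which encodes the receptor for PDGF-B and PDGF-D and is also carried by pericytes, had signals of 575 in the C/H and 1522 in the round array on probe set 1436970_a_at, and 209 and 357 in the same order on probe set 1417148_at. Its log2 differences were -1.40 and -0.77. The second probe set stayed within 2-fold, and the mean over both was -1.09.

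Of the matricellular genes, *Postn* and *Tnc* had the largest differences among the 6 members above the floor in both arrays. *Postn*, which encodes periostin, a collagen-binding protein of periosteum, perichondrium and ligament, had a signal of 186 in the C/H array and 1977 in the round array. That is 10.6-fold higher in the round array, a log2 difference of -3.41, and 22 of 12714 compared genes had a lower value, bounds taken as they stand. *Tnc*, which encodes tenascin-C, a large oligomeric glycoprotein of tendon, perichondrium and articular surface, had signals of 259 in the C/H and 2656 in the round array on probe set 1416342_at. Its log2 difference was -3.36, with 25 genes lower. On its second probe set, 1456344_at, *Tnc* had 47.9 in the C/H array, which is under the floor, and 350 in the round array, at least 5.31-fold lower in the C/H array. Both genes were detected in the C/H section too, at 2.82 and 3.92 times the floor.

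*Tnn* and *Dpt* were above the floor in the round array alone. *Tnn*, which encodes tenascin-W, a tenascin found around developing bone, had signals of 6.87 in the C/H array and 149 in the round array. It was at least 2.27-fold lower in the C/H array, a bound of -1.18 on the log2 scale. *Dpt*, which encodes dermatopontin, a small decorin-binding matrix protein of fibroblasts, had signals of 1.62 in the C/H array and 97.1 in the round array. It was at least 1.47-fold lower in the C/H array. The columnar/hypertrophic signals of both genes were far down in that array, at its percentiles 9.39 and 1.66, and signals that low have no order. Lowering the floor to percentile 20 gave bounds of -2.72 for *Tnn* and -2.10 for *Dpt*.

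**Figure D2:**
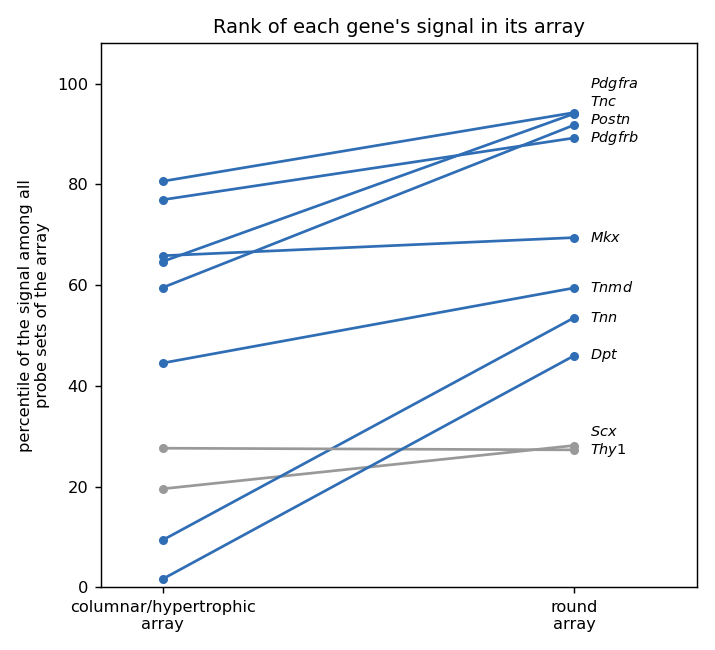
Percentile of the signal of each gene's brightest probe set among all 45037 probe sets of its own array, columnar/hypertrophic on the left and round on the right; grey lines are genes under the floor in both arrays. *Tnc* lies at percentile 64.7 in the C/H array and 94.0 in the round array, and *Mkx* at 65.8 and 69.4 in the same order.

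The place of a signal within its own array needs no scaling between arrays. *Pdgfra* lay at percentile 80.6 of the C/H array and at 94.3 of the round array. *Postn* lay at 59.5 of the C/H array and at 91.8 of the round array, and *Pdgfrb* at 77.0 and 89.2 in the same order. *Thy1*, under the floor in both, lay at 27.6 of the C/H array and 27.3 of the round array. Brightness depends on the probe set as well as on the transcript, so a percentile is set against the same probe set in the other array and not against another gene.

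**Figure D3:**
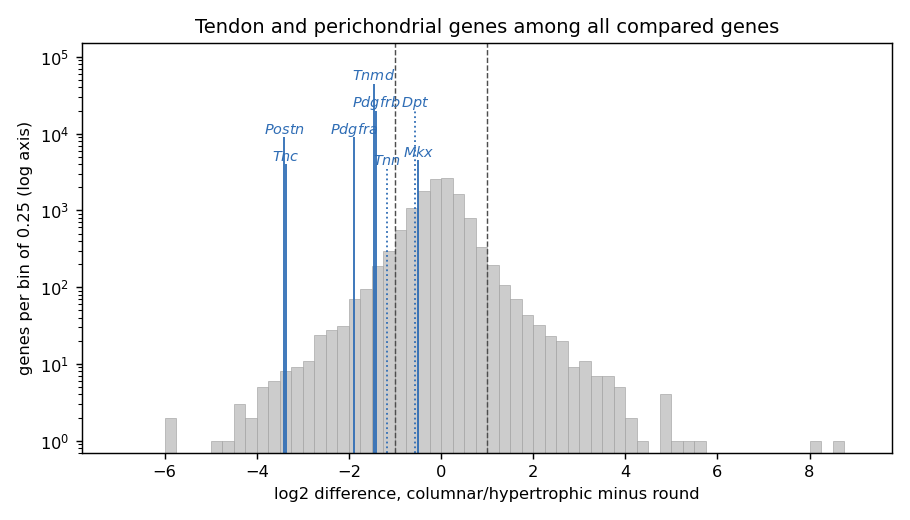
Histogram of the log2 difference (columnar/hypertrophic minus round) of all 12714 compared genes, genes per bin on a log axis, with the 8 compared members as lines (dotted where the value is a bound) and the 2-fold limits dashed. *Postn* and *Tnc* lie in the left tail at -3.41 and -3.36, and *Mkx* lies inside the limits at -0.49, as does the bound of *Dpt* at -0.56.

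Promoter sequences of 6 of the 10 genes (*Tnmd*, *Postn*, *Tnc*, *Tnn*, *Pdgfra* and *Dpt*) were read from RefSeq on build GRCm38.p6, as windows of 300 bases around each annotated start, and searched on both strands. Printed below are the 250 bases before a start for *Postn* and *Tnc*, which had the largest differences of the members above the floor in both arrays, for *Dpt*, which had the most E-boxes, and for *Tnmd*, the tendon cell marker. *Postn* is shown at chr3:54360857-54361106 (plus strand), *Tnc* at chr4:64047016-64047265 (minus strand), *Dpt* at chr1:164796413-164796662 (plus strand) and *Tnmd* at chrX:133850758-133851007 (plus strand). Capitals mark the TATA box motif TATAAA and 2 forms of the E-box, of which 1 is CAGCTG and the other form is CATCTG, on either strand.
Postn: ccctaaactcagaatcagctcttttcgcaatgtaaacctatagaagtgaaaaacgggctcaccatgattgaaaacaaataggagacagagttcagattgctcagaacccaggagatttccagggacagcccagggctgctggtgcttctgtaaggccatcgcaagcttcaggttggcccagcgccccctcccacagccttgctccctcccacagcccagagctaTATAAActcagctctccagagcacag
Tnc: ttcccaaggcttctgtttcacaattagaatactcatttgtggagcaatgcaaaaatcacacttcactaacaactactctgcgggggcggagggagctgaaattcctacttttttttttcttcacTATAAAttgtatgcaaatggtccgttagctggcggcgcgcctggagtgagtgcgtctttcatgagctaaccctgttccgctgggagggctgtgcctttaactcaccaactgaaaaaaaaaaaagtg
Dpt: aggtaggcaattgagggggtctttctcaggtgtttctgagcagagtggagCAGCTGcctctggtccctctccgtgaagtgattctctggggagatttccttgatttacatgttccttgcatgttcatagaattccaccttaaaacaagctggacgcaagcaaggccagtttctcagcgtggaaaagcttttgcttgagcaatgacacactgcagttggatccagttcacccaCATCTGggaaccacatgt
Tnmd: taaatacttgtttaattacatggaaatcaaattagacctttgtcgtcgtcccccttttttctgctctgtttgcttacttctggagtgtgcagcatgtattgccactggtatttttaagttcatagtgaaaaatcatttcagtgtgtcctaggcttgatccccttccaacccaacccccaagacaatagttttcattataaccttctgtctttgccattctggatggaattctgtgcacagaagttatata
TATAAA, the core of the TATA box, was found for 3 of the 6 genes, against 15.7% of all 27025 genes with a window. *Postn* and *Tnc* each had 2 annotated starts. In *Postn* it began at position -26 from the start shown, in *Tnc* at -126, and in *Dpt* at position 12 after the start, which is outside the sequence printed. CANNTG, the E-box that bHLH factors such as scleraxis can bind, was found for *Tnc*, *Pdgfra* and *Dpt*, against 75.0% of all genes. It includes CAGCTG, found for *Dpt* alone against 18.3%, and CATCTG, found for *Pdgfra* and *Dpt* against 19.2%. CAGAC, a SMAD-binding element, was found for *Postn*, *Tnc* and *Pdgfra*, against 53.2%, and the GC box GGGCGG for *Tnc*, against 38.2%. For *Postn* the CAGAC match lay by the start that is not shown. For the *Tnc* start shown it began at position 9 after the start, outside the sequence printed. TGANTCA, the AP-1 site, and the CArG box were found for 0 of the 6, against 8.97% and 1.81% of all genes. *Tnmd* and *Tnn* held no match to any of these motifs in their windows. A match describes letters only.

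The growth factors that act on the PDGF receptors were split. *Pdgfc* had signals of 259 in the C/H array and 2040 in the round array, which is -2.98 on the log2 scale, or -4.03 by its second probe set. *Pdgfd* had 282 in the C/H and 1201 in the round array, a log2 difference of -2.09. *Pdgfa* had 1269 in the C/H and 1217 in the round array and was nearly equal at 0.06, while *Pdgfb*, typically made by endothelium, was at 82.2 in the C/H array and at 61.5, under the floor, in the round array. Of the 4 ligand genes, 2 were therefore 2-fold or more above C/H in the round array and 0 in the C/H array.

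Of 7 integrin genes whose products bind periostin or tenascins, 6 were above the floor in both zones. Of these, 2 were 2-fold or more above C/H in the round array. *Itga8*, the α8 chain, had signals of 160 in the C/H array and 2414 in the round array, a log2 difference of -3.91. *Itga9*, the α9 chain that binds tenascin-C, had 121 in the C/H and 299 in the round array, a log2 difference of -1.31, with -0.49 as the smallest over its 3 probe sets. *Itgav* and *Itgb3* were within 2-fold at -0.48 and -0.34, and so were *Itgb1* and *Itgb5*.

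Fibrous matrix genes, the collagens, small proteoglycans and elastic fibre genes of tendon and perichondrium, lay mostly on the same side as the members. Of 22 measured genes 20 were compared, of which 12 were 2-fold or more above C/H in the round array, 0 were 2-fold or more above round in the C/H array, and the median was -1.22. All 12 were above the floor in both arrays. By any size, 17 of the 20 were higher in the round array (1 as a bound), against 53.1% of all compared genes. The other 3 were higher in the C/H array, all within 2-fold. They were *Col6a3* (13985 in the C/H and 9137 in the round array), *Lum* (22176 and 21458) and *Mfap5* (84.0 and 80.0). The largest differences among genes above the floor in both arrays were those of *Col14a1* (104 in the C/H and 2495 in the round array), *Ogn* (553 and 4647), *Col3a1* (5232 and 30420.3) and *Eln* (176 and 993), each in the same order of arrays. *Col14a1* encodes a fibril-associated collagen, *Ogn* osteoglycin, *Col3a1* the type III collagen chain and *Eln* elastin. The tendon proteoglycan gene *Kera* was under the floor in both arrays, and *Thbs4*, of the tendon thrombospondin, had only 89.1 in the C/H and 126 in the round array.

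Regulators and surface markers of tendon and fibroblasts showed a like split. Of 18 measured genes 13 were compared, and 9 of these were above the floor in both arrays. Of those 9, 6 were 2-fold or more above C/H in the round array and 0 above round in the C/H array, and their median was -1.89. The other 4, *Six2*, *Osr2*, *Meox2* and *Cd34*, were above the floor in the round array alone, and 3 of these bounds were past 2-fold, which makes 9 of 13 in all with a median of -1.36. *Egr1*, a zinc finger factor of tendon that is also an immediate early gene, had signals of 221 in the C/H and 3559 in the round array. *Gas1*, a hedgehog co-receptor gene, had 435 in the C/H and 5255 in the round array. *Fap*, of a fibroblast surface protease, had 144 in the C/H and 1214 in the round array, and *Pdpn*, of podoplanin, had 415 and 1999.7 in the same order. The limb mesenchyme gene *Prrx1* was 3.71-fold higher in the round array. *Nt5e*, which encodes the ecto-nucleotidase CD73, lay on the other side with 1939 in the C/H and 993 in the round array, a log2 difference of 0.96 that was past 2-fold after median centring. The fibroblast genes *Pi16* and *Dpp4* were under the floor in both arrays.

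Close relatives of the members lay mostly on the other side. Of 11 relatives 7 were compared, 6 of them with the higher signal in the C/H array. Of the 7, 3 were 2-fold or more above round in the C/H array and 0 in the round array, with a median of 0.82. *Irx5* and *Irx2* were above the floor in the C/H array alone, so that 5 of the 7 were above it in both, 2 of them past 2-fold. *Tgfbi*, which encodes the fasciclin-domain protein most like periostin, had signals of 18424 in the C/H array and 7453 in the round array, a log2 difference of 1.31 against -3.41 for *Postn*. *Cnmd*, which encodes chondromodulin, the cartilage relative of tenomodulin, had 62010.5 in the C/H and 62192 in the round array, near the top of the range, where a difference can be hidden. *Irx3*, of the Iroquois homeobox genes related to *Mkx*, had 433 in the C/H and 89.6 in the round array. *Irx5* had 1327 in the C/H array and was under the floor in the round array, at least 20.1-fold higher in the C/H array. The tenascin genes *Tnr* and *Tnxb* were under the floor in both arrays. *Tcf15*, of a bHLH factor close to scleraxis, had 118 in the C/H and 73.2 in the round array. *Csf1r*, a receptor kinase gene of the same family as the PDGF receptors and a macrophage marker, had 161 in the C/H and 91.0 in the round array.

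**Figure D4:**
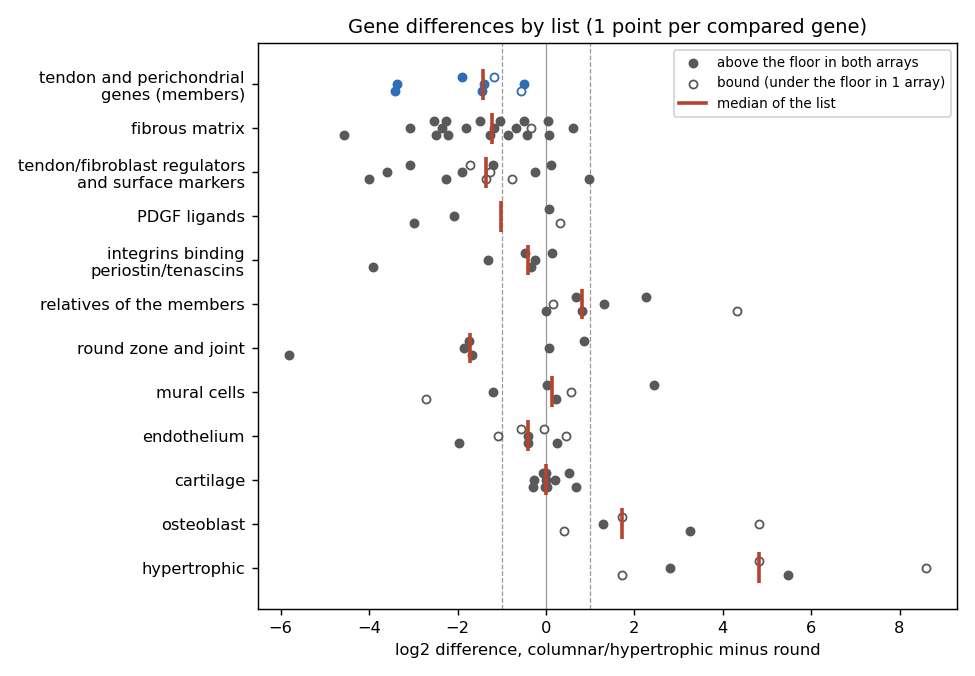
Log2 difference (columnar/hypertrophic minus round) of every compared gene of 12 lists, 1 point per gene, open where the value is a bound, with the median of each list as an upright bar and the 2-fold limits dashed. The members' median lies at -1.43, the fibrous matrix median at -1.22 and the cartilage median at 0.00, while the relatives of the members have a median of 0.82. Several cartilage genes had signals near the top of the range, where a difference can be hidden.

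Markers of the round zone and of other tissues that such sections can hold moved with the members in part. Of 6 compared genes of a round zone and joint list, 4 were 2-fold or more above C/H in the round array. The summed signal of the list was 9711 in the C/H and 31940.5 in the round array, most of it from *Ucma* (6943 and 23261). *Erg* had 218 in the C/H and 793 in the round array. *Prg4*, which encodes lubricin of the joint surface, had 94.1 in the C/H and 5260 in the round array, and *Gdf5*, of the joint interzone, had 296 and 949 in the same order. *Gli1* (915 and 501) and *Sfrp5* (1244 and 1177) had the higher signal in the C/H array, both within 2-fold. Of 8 compared endothelial genes, 4 were above the floor in both arrays. Of the 8, *Eng* and, as a bound, *Esam* were 2-fold or more above C/H in the round array. *Egfl7*, *Kdr* (88.4 in the C/H and 117 in the round array) and *Cldn5* (80.2 and 67.3) were above the floor in both, within 2-fold. *Pecam1* passed the floor in the round array alone and *Cdh5* in the C/H array alone. *Tek* and *Tie1* were under it in both. The summed signal of all 10 measured genes, those under the floor included, was 723 in the C/H and 1209 in the round array. Of these sums *Eng* alone held 106 in the C/H and 411 in the round array. The part that joint, perichondrial or vascular tissue in the round section had in the members' differences was not tested.

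Mural cell genes, which share *Pdgfrb*, gave no common direction. Of 6 compared, 2 (*Notch3* and, as a bound, *Mcam*) were 2-fold or more above C/H in the round array and 1, *Acta2*, in the C/H array, with a median of 0.13. The summed signal of all 10 measured genes was 13195 in the C/H and 11039 in the round array, most of it from *Cspg4*. *Myh11* and *Tagln* were under the floor in both arrays. Osteoblast genes had the opposite sign to the members, and 4 of the 5 were 2-fold or more above round in the C/H array, 2 of them as bounds. These 2 bounds, *Alpl* and *Ibsp*, are also in the hypertrophic list, so the osteoblast list is not separate from it. Skeletal muscle genes were compared for 3 of 12, 2 of them 2-fold or more above round in the C/H array (1 as a bound). The summed signal of all 12, those under the floor included, was 1053 in the C/H and 386 in the round array. The muscle regulators *Myod1*, *Myog* and *Myf5* were under the floor in both arrays. For *Thy1*, which T cells and neurons also carry, 1 of 5 T cell genes (*Cd8a*) and 2 of 6 nerve genes were above the floor in either array, none with a 2-fold difference. Of 7 blood and myeloid genes 4 were compared, and 0 passed 2-fold.

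The differences of the members kept their sign under every scaling tried. After median centring, quantile normalization and lowess centring, *Postn* ranged from -3.32 to -3.31, *Tnc* from -3.30 to -3.27, *Pdgfra* from -1.90 to -1.81 and *Mkx* from -0.40 to -0.32, and the same number of members, 6 with the bound of *Tnn*, was 2-fold or more above C/H in the round array. With a limit of 3-fold the number was 3, namely *Postn*, *Tnc* and *Pdgfra*. For *Tnmd*, *Tnn* and *Dpt*, the size of the difference depended on the floor.

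**Figure D5:**
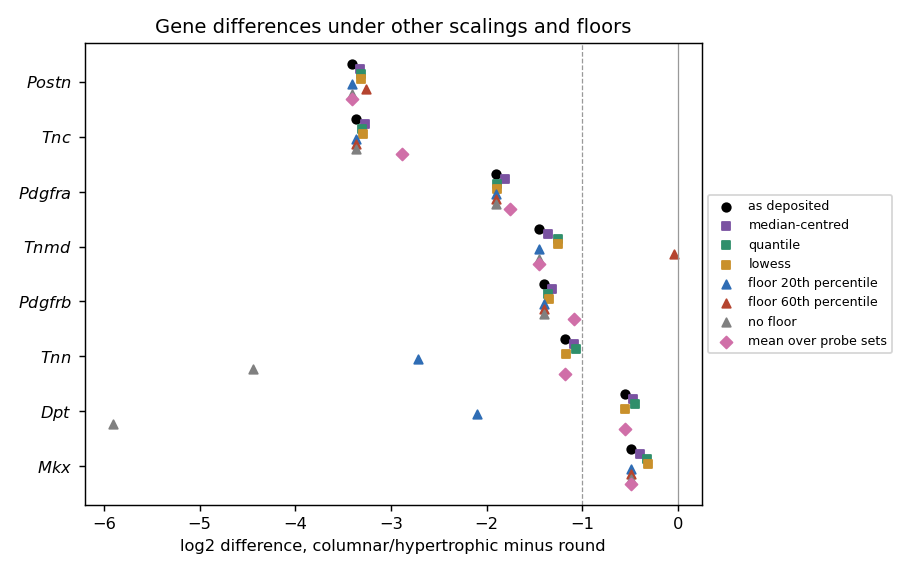
Log2 difference (columnar/hypertrophic minus round) of the 8 compared members as deposited (black) and under 3 other scalings (squares), 3 other floors (triangles) and the mean over probe sets (diamonds); the dashed line is 2-fold. *Postn* stays between -3.41 and -3.26, the second a bound under the floor at the 60th percentile. *Dpt* spreads from -5.91 with no floor to -0.45 after quantile normalization. *Tnn* could not be compared with the floor at the 60th percentile, nor could *Dpt*.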

How the data were processed

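RNA of the columnar/hypertrophic and the round section of *Tric-b*-knockout femoral cartilage was hybridised to 1 Affymetrix GeneChip mouse genome array per zone. The deposited values are linear signal intensity values made by the authors with MAS5, as the submitters' processing notes name it. The study's methods name robust multiarray analysis instead, but the deposited trimmed means of 496 in the columnar/hypertrophic and 497 in the round array fit MAS5 scaling. The settings of the algorithm are not given in the sources used here. Probe sets were named from the platform annotation, where 34945 of 45037 had 1 symbol, 932 several and 9160 none, and those with several were left out. The members' names were the same in RefSeq. Signals were used as deposited, with medians of 104 in the columnar/hypertrophic and 121 in the round array. Differences are log2 columnar/hypertrophic minus round, with the floor at the 40th percentile of both arrays, and of several probe sets the brightest over both arrays, by mean log2 signal, stood for the gene. No depth is defined for arrays, and the number of arrays, 1 per zone, limits the precision.

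The members and lists were chosen with earlier results of these data known. Named were all members and, from each gene list, up to 4 genes with the largest difference among those above the floor in both arrays, with marker genes from the cell type lists. *Kera*, *Thbs4*, *Prrx1*, *Nt5e*, *Pi16*, *Dpp4*, *Six2*, *Osr2*, *Meox2*, *Cd34*, *Irx2*, *Cnmd*, *Irx5*, *Tnr*, *Tnxb*, *Itgb1* and *Itgb5* were named after their values were seen. So were *Col6a3*, *Lum*, *Mfap5*, *Alpl*, *Ibsp*, *Pecam1*, *Cdh5*, *Col9a1*, *Gli1* and *Sfrp5*. The lists cover fibrous matrix, regulators and surface markers, relatives, PDGF ligands, integrins, mural cells, endothelium, skeletal muscle, nerve, T cells, blood and myeloid cells, osteoblasts, cartilage, round zone and joint, and hypertrophic cells, and 11 of their genes (such as *Runx2*, *Spp1* and *Pthlh*) were not analysed here. Alternatives were median centring, quantile normalization, lowess centring, other floors, the mean over probe sets, only specific probe sets and a 3-fold limit. The scaling and the comparison were run on simulated arrays that differed only by noise and by changes set in brighter probe sets. No bias between arrays and no change in low signals was simulated, so the handling of these was not tested. Promoters came from RefSeq on GRCm38.p6, and protein sequences were not used here. Computations used pandas 2.3.3 and numpy 2.4.6 under Python 3.11.15, with lowess from statsmodels 0.14.6, and plots were drawn in matplotlib 3.10.9.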

Additional observations from a re-analysis of the deposited data

How the results depend on the processing

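No difference of the 8 compared members and no median of the 5 gene lists around them changed its sign under any alternative. For a member, only the scalings could have changed the sign. A floor put in place of low signals cannot reverse it, and every compared probe set of the members was lower in the C/H array, so neither a mean nor a choice of probe sets could. Of the results on the 10 genes, 100 stayed within the tolerance under an alternative and 9 moved, and of the results on the lists and all genes 130 stayed and 18 moved. The tolerance was wide for counts. With the floor at percentile 60, 6 members were compared against 8, and 4 were past 2-fold against 6, and both were taken as having stayed. So were the 3-fold counts of 8 against 12 for the fibrous matrix and 6 against 9 for the regulators and surface markers. With a floor raised to percentile 60 (207), *Tnmd* had a log2 difference of -0.047 and 4 probe sets of the members were 2-fold or more above C/H in the round array, against 9 as reported. *Tnn* was -2.72 when the floor was lowered to percentile 20 (22.7) and -4.44 with no floor, and *Dpt* was -2.10 and -5.91 under the same settings. *Tnc* was -2.89 as the mean over its probe sets. A 3-fold limit left 3 member genes and 5 member probe sets higher in the round array. For the regulators and surface markers, 1 gene was 2-fold or more above round in the C/H array after median centring and 1 with no floor, against 0, and 5 were higher in the round array under that raised floor, against 9. For the relatives, 1 gene was higher in the round array under the lowered floor and 1 with no floor, and the median was 1.19 under the raised floor. The median of the PDGF ligands was then -2.09. Of the integrins, 1 in place of 2 was higher in the round array under that raised floor, with the mean over probe sets and with the 3-fold limit. Over all genes, 1038, 342, 1940 and 211 were higher in the C/H array under the lowered floor, the raised floor, no floor and the 3-fold limit, and 1486, 402, 2524 and 263 were higher in the round array. Another floor changes both which signals are admitted and the value put in place of a low signal, and another limit changes which differences pass it. The mean over probe sets takes in probe sets that did not stand for the gene, such as that of *Tnc* with a bound of -2.41. Median centring shifts every difference by the same amount, which put *Nt5e* past 2-fold. Of the genes past 2-fold, 59.2% were higher in the round array as deposited and 49.6% after quantile normalization, so the larger side turned, and the median of all genes, -0.04 as deposited, was 0.05, 0.03 and 0.01 after median centring, quantile normalization and lowess centring. *Scx* could be compared only in alternatives, with bounds of -0.79 under the lowered floor and -0.26 as the mean over probe sets, and -0.92 with no floor, from signals under the floor in both arrays. *Thy1* was -0.15 under the lowered floor. The values of *Tnn* and *Dpt* under the lowered floor and of *Tnmd* under the raised floor are bounds. No paired analysis was possible because a single array represents a zone, which leaves nothing to pair or test. Signals under the floor limit *Scx*, *Thy1*, *Tnn* and *Dpt*, and differences near the top of the range can be hidden.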
